A study of Mus musculus with 24 samples.

Results

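The 50 genes described here encode the proteasome or carry its symbols. They were chosen from the platform annotation by symbol alone, as every gene whose symbol starts with Psm, a letter from a to g and a number, and they make up 50 of the 19505 genes with a symbol on the arrays. By symbol, 18 were counted with the catalytic core (Psma and Psmb), 21 with the regulatory cap (Psmc and Psmd) and 11 as others (Psme, Psmf and Psmg). The 21 include Psmc3ip and the 11 include Psme3ip1, which encode partner proteins and no subunit. Psmb5, which encodes a standard catalytic subunit, was not analysed here. Each of the 50 genes had 1 annotated probe set, so no value could be checked against a further probe set of the same gene.

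RNA came from whole lungs of 6-month-old mice, and each lung sample was measured on 1 Affymetrix array. The 4 groups were Marfan mice given sildenafil (MFS-SIL, 5 arrays), Marfan mice given vehicle (MFS-Veh, 5 arrays), wild-type mice given sildenafil (WT-SIL, 4 arrays) and wild-type mice given vehicle (WT-Veh, 6 arrays). Marfan syndrome is an inherited disorder of connective tissue that in mice widens the airspaces of the lung, and the labels name neither the mutant allele nor the strain. Sildenafil, an inhibitor of the phosphodiesterase that breaks down cyclic GMP, was given in the water the mice drank, starting at an age of 6 weeks and going on to 6 months. The design planned 6 mice per group and no label gives the animals' sex or says that arrays came from separate animals, so each p-value reflects only how these samples scatter. The mean of Eif2s3y, Kdm5d and Uty, which lie on the Y chromosome, was at most 3.15 log2 units on MFS-SIL array 8, MFS-Veh arrays 20 and 21, WT-SIL array 5 and WT-Veh arrays 13 and 14, and at least 7.31 on the other arrays. Whole lung mixes many cell types, so fewer cells of a type and less RNA per cell cannot be told apart.

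The proteasome is the large protease that degrades proteins tagged with ubiquitin. Its core is a barrel of stacked rings: the alpha rings (Psma genes) gate the entrance, and the inner beta rings (Psmb genes) carry the catalytic sites. The regulatory cap binds ubiquitin, removes it, and unfolds the substrate with a ring of ATPases (Psmc genes) held by non-ATPase subunits (Psmd genes). In immune cells and under interferon-gamma, the catalytic subunits are exchanged for Psmb8, Psmb9 and Psmb10, which form the immunoproteasome and yield peptides for antigen presentation. When proteasome activity is short, the transcription factor encoded by Nfe2l1 raises subunit genes together through antioxidant response elements, and interferon acts through interferon-stimulated elements and through factors such as IRF1. In the lung, immune cells, alveolar macrophages among them, are known to carry much immunoproteasome.

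Promoter sequence was available from RefSeq (mouse build GRCm38.p6) for 42 of the 50 genes as 46 promoters, each reaching from 250 bases before the transcription start to 50 bases after it. The antioxidant response element core, searched as TGACNNNGC on both strands, was found in 5 of 46 member promoters (10.9%) and in 12.4% of all 32851 promoters. The genes were Psmb6, Psmc6, Psmd9, Psmd12 and Psme4. The following windows, which hold the matches of a catalytic subunit and 2 cap genes, are printed 5′ to 3′ on the gene's strand with the matched letters in capitals (Psmb6 chr11:70525328-70525356, Psmd12 chr11:107479278-107479309 and Psmd9 chr5:123228139-123228187, all on the plus strand).
Psmb6: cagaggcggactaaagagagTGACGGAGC
Psmd12: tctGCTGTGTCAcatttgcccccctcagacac
Psmd9: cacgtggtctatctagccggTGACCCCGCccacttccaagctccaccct

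The interferon-stimulated element core, searched on both strands as GAAA followed after any 2 bases by a further GAAA, was found in 5 member promoters (10.9%), those of Psmb3, Psmd4, Psmd9, Psme1 and Psmg4, and in 3.44% of all promoters. The matches of Psme1 and Psmg4 reach past the transcription start. As described below, 10 of the 50 genes (20%) were lower under sildenafil at an unadjusted p under 0.05 on normalized values. Psmb3, Psmd4 and Psmg4 are among these 10, and Psmd9 and Psme1 are not. A link between the motif and these signals was not tested. The windows of Psmb3 (chr11:97703251-97703300, plus strand) and Psmd4 (chr3:95042665-95042714, minus strand) carry the match in capitals, which lies on the strand opposite to the gene. A match of letters describes the sequence and does not show that a factor binds it.
Psmb3: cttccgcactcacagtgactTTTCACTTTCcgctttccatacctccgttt
Psmd4: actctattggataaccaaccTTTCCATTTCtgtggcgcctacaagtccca

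Psmb9 and Tap1, a peptide transporter subunit of the antigen-presentation pathway, start back to back on chromosome 17 with 225 bases between their starts. These bases (chr17:34187331-34187555) are shown on the minus strand, that of Psmb9, because the values of both genes are set side by side below. The capitals mark a CCAAT box, searched as CCAAT on both strands, which was found in 16 of 46 member promoters (34.8%) and in 37.4% of all promoters.
Psmb9 to Tap1: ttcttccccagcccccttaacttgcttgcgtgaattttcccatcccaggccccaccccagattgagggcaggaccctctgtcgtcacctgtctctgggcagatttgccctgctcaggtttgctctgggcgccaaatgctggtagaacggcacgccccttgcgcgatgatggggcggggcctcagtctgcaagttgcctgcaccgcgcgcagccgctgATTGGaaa

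The arrays differed in brightness before normalization between arrays. The median deposited signal per array was 6.06 ± 0.28 log2 units in MFS-SIL (SD, n = 5), 6.03 ± 0.13 in MFS-Veh (n = 5), 6.05 ± 0.14 in WT-SIL (n = 4) and 5.66 ± 0.19 in WT-Veh (n = 6), so WT-Veh was the dimmest group. Unless another scale is named, the values below were quantile-normalized over the 20 arrays. MFS-SIL array 9 stood apart: its alveolar macrophage markers lay 1.45 log2 units above the mean of all arrays, and its cardiac muscle markers lay at -2.88, its lung markers at -0.39 and its erythrocyte marker at -2.10 relative to that mean. The 4 measured lung markers, Sftpc, Ager, Scgb1a1 and Pecam1, averaged between 11.96 and 12.48 log2 units on every array. Among them Scgb1a1 averaged 13.382 in every group after normalization, so it could not show a difference between the groups. Across the 50 proteasome genes the median SD between arrays of a group was 0.17 log2 units, against 0.26 over all genes and 0.20 over the brighter 9753 genes, in which 45 of the 50 lay.

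In sildenafil against vehicle lungs, averaged over both genotypes, most proteasome genes had fitted differences below 0 on the normalized arrays, but not on the deposited values. Of the 50 genes, 41 had a fitted difference below 0, with a median of -0.085 log2 units, while 51% of all genes were below 0 with a median of -0.0034. None of the 50, and none of the 19505 genes (0%), passed an adjusted p of 0.05 (limma with Benjamini-Hochberg adjustment over all genes). At an unadjusted p under 0.05, 10 genes were lower (20%) and none was higher, against 5.73% of all genes lower and 5.17% higher. With the Y-linked mean as a covariate 9 were lower and none was higher. On the deposited values, without normalization between arrays, where the median of all genes shifted by 0.157 log2 units, 9 of the 50 were below 0, with a median of 0.11, and 35 of the 50 lay below the median of all genes. There, none of the 50 was lower and 4 were higher at an unadjusted p under 0.05. With the brightness of each array as a covariate, 4 genes were lower and none was higher at that unadjusted p, and 37 of 50 were below 0. The share of all genes at that p is given here for the main fit only. Counts at that p under other settings, here and below, therefore have no share of all genes beside them.

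The 18 core genes had a median difference of -0.13 log2 units, 17 of them were below 0 (5 on deposited values) and 6 were lower at an unadjusted p under 0.05. Set against the median of all genes on the same scale, 17 of the 18 were below it on quantile-normalized values, 16 on deposited values and 14 with the brightness covariate. The 21 cap genes had a median of -0.083, with 17 below 0 (3 on deposited values) and 3 past that p. The 11 others had a median of -0.021, with 7 below 0 (1 on deposited values) and 1 past it. None of these passed the adjusted threshold, and the differences between the 3 classes were not tested.

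**Figure D1:**
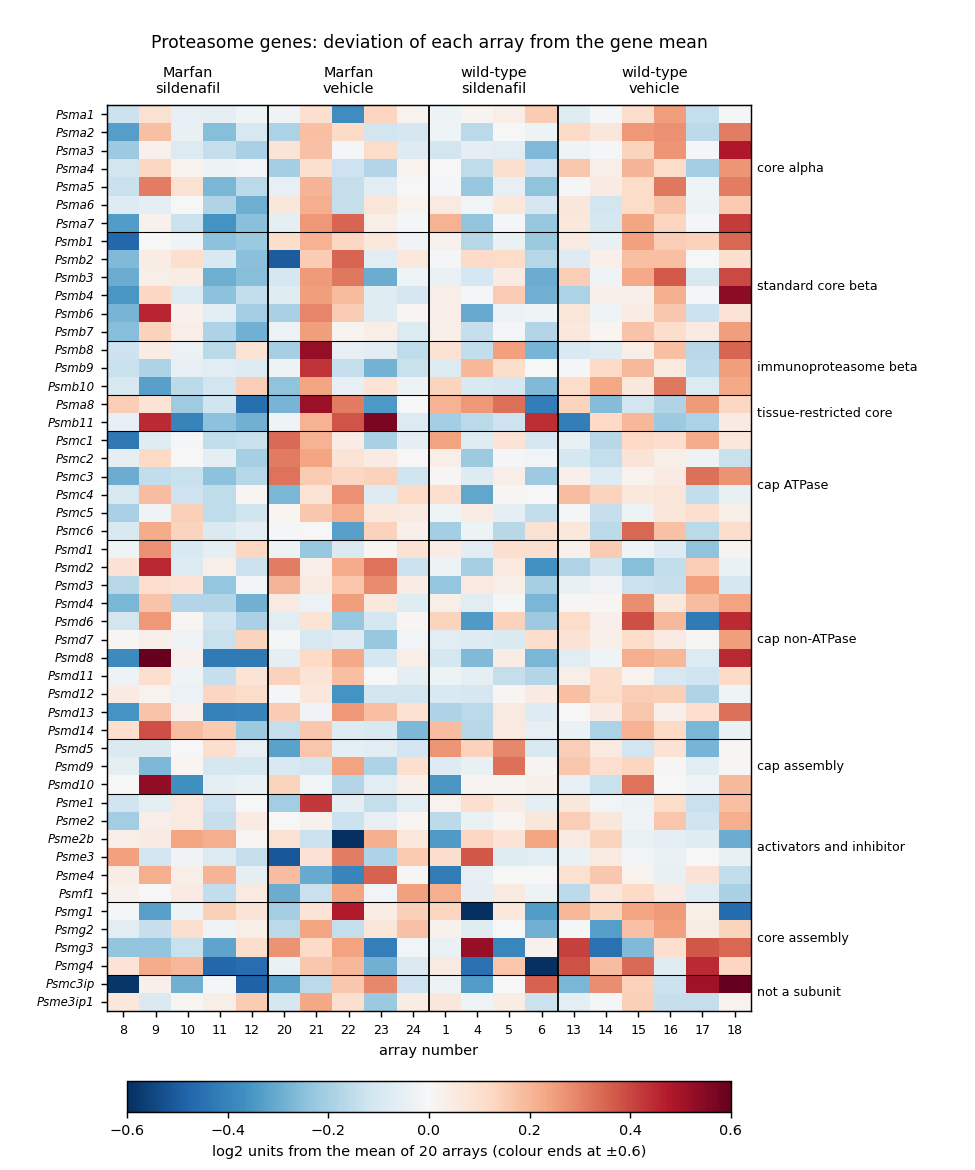
Quantile-normalized log2 signal of each proteasome gene (rows, grouped by role) on each of the 20 arrays (columns, grouped as MFS-SIL, MFS-Veh, WT-SIL and WT-Veh), drawn as the deviation from the gene's mean over the arrays in log2 units. On this normalized scale core genes are mostly below their mean on MFS-SIL arrays 8, 11 and 12 and WT-SIL array 6, and mostly above it on MFS-Veh array 21 and WT-Veh array 18.

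The core was not low on every sildenafil array. Taking on each array the median over the 18 core genes of the deviation from the gene's mean, MFS-SIL arrays 8, 9, 10, 11 and 12 had -0.18, 0.065, -0.039, -0.17 and -0.20 log2 units. MFS-Veh arrays 20 to 24 had -0.066, 0.23, 0.066, -0.065 and -0.024. WT-SIL arrays 1, 4, 5 and 6 had 0.014, -0.12, 0.021 and -0.20, and the WT-Veh arrays had a lowest value of -0.057, a median of 0.11 and a highest of 0.26. Arrays 8, 11 and 12 of MFS-SIL and 4 and 6 of WT-SIL were below every vehicle array, while the other sildenafil arrays lay within the vehicle range.

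**Figure D2:**
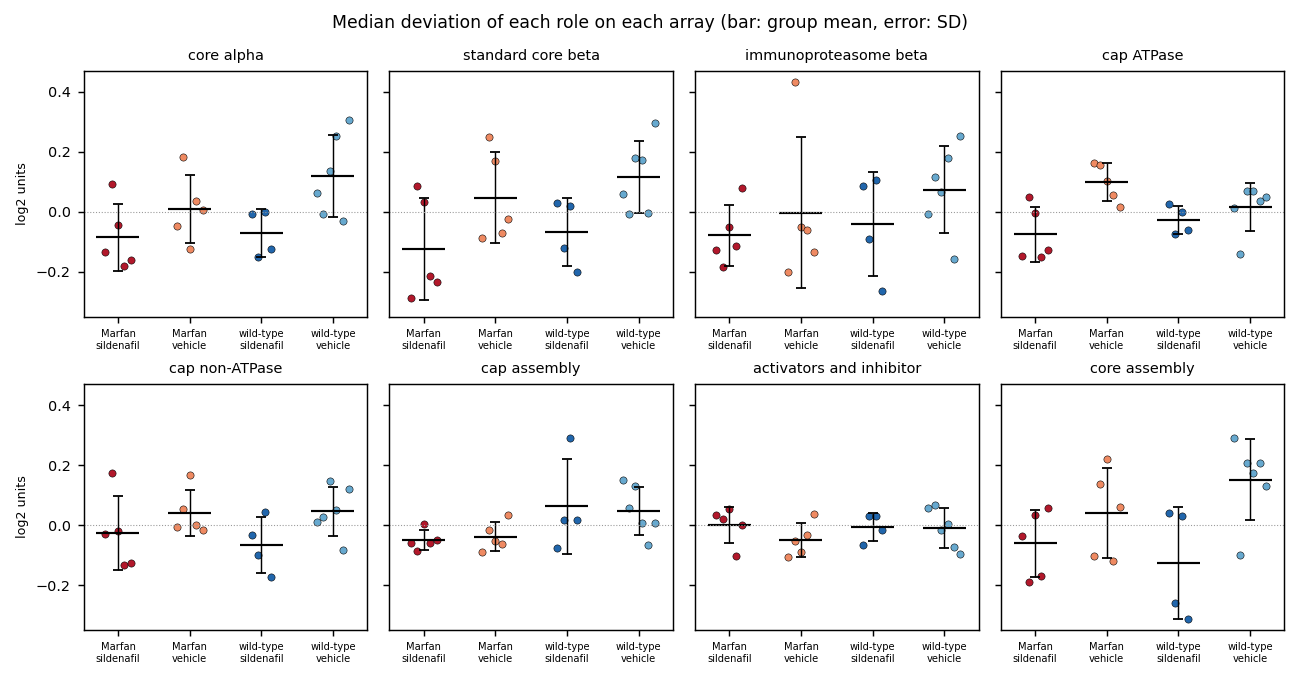
Median deviation of the genes of each role from their mean (vertical axis, log2 units) on each array, with lines for the group mean and SD and the groups in the order MFS-SIL, MFS-Veh, WT-SIL and WT-Veh. On these normalized values the standard core beta genes run from -0.29 to 0.084 on MFS-SIL arrays, against -0.088 to 0.25 on MFS-Veh arrays, while 2 of these 6 genes were below 0 in the averaged comparison on deposited values.

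Psmb1, a non-catalytic subunit of the beta ring, had the smallest p of the family. It read 9.16, 9.63, 9.60, 9.38 and 9.40 log2 units on the MFS-SIL arrays, against 9.73, 9.84, 9.75, 9.69 and 9.60 on the MFS-Veh arrays. In wild-type lungs it read 9.65, 9.45, 9.58 and 9.40 with sildenafil, against a lowest value of 9.58, a median of 9.77 and a highest of 9.97 with vehicle. In both genotypes the sildenafil arrays sat in the lower part of the range and overlapped the vehicle arrays slightly. Its averaged difference was -0.27 ± 0.068 log2 units (SE), a fold of 0.830, with an interval of -0.41 to -0.13 (95%) and an adjusted p = 0.144 (limma, Benjamini-Hochberg, unadjusted p = 5.70e-04). Without MFS-SIL array 9 it was -0.29 with an adjusted p = 0.0445. With array brightness as a covariate it was -0.18 with an adjusted p = 0.515.

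Among the other standard beta subunits, Psmb3 averaged 8.10 ± 0.18 log2 units in MFS-SIL and 8.29 ± 0.26 in MFS-Veh (SD, n = 5 each). It averaged 8.16 ± 0.15 in WT-SIL (n = 4) and 8.43 ± 0.20 in WT-Veh (n = 6), and its averaged difference was -0.22 ± 0.089 (SE). All 6 measured standard beta genes were below 0 in the averaged comparison (2 of 6 on deposited values, all 6 below the median of all genes), with a median of -0.16, and 3 of them (Psmb1, Psmb3 and Psmb7) at an unadjusted p under 0.05.

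The standard catalytic genes measured were Psmb6, of the caspase-like site, and Psmb7, of the trypsin-like site. Psmb6 read 9.81, 10.54, 10.11, 10.02 and 9.88 log2 units on the MFS-SIL arrays, against 9.89, 10.38, 10.24, 10.01 and 10.10 on the MFS-Veh arrays. The WT-SIL arrays had 10.12, 9.78, 10.05 and 10.06, against a lowest value of 9.95, a median of 10.14 and a highest of 10.25 on the WT-Veh arrays. All 4 groups overlapped for Psmb6, and the highest value belonged to MFS-SIL array 9. The averaged sildenafil difference of Psmb6 was -0.083 ± 0.083 (SE), and 0.082 on deposited values.

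Psmb7 read 8.95, 9.34, 9.24, 9.02 and 8.92 log2 units on the MFS-SIL arrays, against 9.17, 9.45, 9.22, 9.24 and 9.12 on the MFS-Veh arrays. On the WT-SIL arrays it read 9.24, 9.07, 9.20 and 9.03, against a lowest value of 9.22, a median of 9.29 and a highest of 9.45 on the WT-Veh arrays. In all, 3 MFS-SIL arrays and 3 WT-SIL arrays were below all vehicle arrays of their genotype, and arrays 9, 10 and 1 were not. The averaged difference was -0.16 ± 0.067 (SE, limma with Benjamini-Hochberg adjusted p = 0.357), and 0.032 on deposited values.

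Among the alpha subunits, Psma3 and Psma7 were lower at an unadjusted p under 0.05 in the averaged comparison. Psma3 read 8.97, 9.22, 9.11, 9.05 and 9.00 log2 units on the MFS-SIL arrays, against 9.27, 9.37, 9.18, 9.30 and 9.11 on the MFS-Veh arrays. The WT-SIL values of 9.08, 9.14, 9.13 and 8.93 lay below all WT-Veh values, whose lowest was 9.17, median 9.26 and highest 9.67. This separation of WT-SIL and WT-Veh was found in 1 of the 50 genes, and in 1.3% of all genes in the lower direction. The difference of Psma3 was -0.26 ± 0.098 (SE) in wild-type lungs (0.049 on deposited values) and -0.18 ± 0.096 in Marfan lungs. Averaged it was -0.22 ± 0.069 (limma with Benjamini-Hochberg adjusted p = 0.212), or -0.023 on deposited values.

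Psma7 averaged 8.53 ± 0.16 log2 units in MFS-SIL and 8.85 ± 0.18 in MFS-Veh (SD, n = 5 each), against 8.67 ± 0.21 in WT-SIL (n = 4) and 8.86 ± 0.19 in WT-Veh (n = 6). Its averaged difference was -0.26 ± 0.082 (SE). Psma5 had a difference of -0.26 ± 0.11 in wild-type lungs (0.092 on deposited values) and -0.024 ± 0.11 in Marfan lungs. Psma1 was the single alpha gene, and the single core gene, above 0 in the averaged comparison, at 0.0091 log2 units.

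The ATPases of the cap were below 0 in all 6 genes (1 of 6 on deposited values, 5 of 6 below the median of all genes), with a median of -0.099 log2 units. Psmc3, one of these ATPases, read 8.78, 8.94, 8.95, 8.84 and 8.91 log2 units on the MFS-SIL arrays, against 9.41, 9.23, 9.20, 9.22 and 8.96 on the MFS-Veh arrays. All 5 MFS-SIL values were below all 5 MFS-Veh values, by a narrow margin at array 24. It was the single one of the 50 genes to separate in that comparison, where 0.492% of all genes did so in the lower direction. In wild-type lungs Psmc3 read 9.09, 9.00, 9.12 and 8.86 with sildenafil, against a lowest value of 9.00, a median of 9.12 and a highest of 9.41 with vehicle, and those groups overlapped. The difference was -0.32 ± 0.095 in Marfan lungs (SE, limma with Benjamini-Hochberg adjusted p = 0.676) and -0.17 ± 0.097 in wild-type lungs. Averaged over genotype it was -0.24 ± 0.068 (limma with Benjamini-Hochberg adjusted p = 0.168).

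Psmc1, another of the ATPases, read 8.47, 8.82, 8.88, 8.75 and 8.76 log2 units on the MFS-SIL arrays, against 9.23, 9.10, 8.94, 8.70 and 8.84 on the MFS-Veh arrays. It read 9.14, 8.82, 8.98 and 8.79 on the WT-SIL arrays, against a lowest value of 8.73, a median of 8.98 and a highest of 9.11 on the WT-Veh arrays. MFS-SIL array 8 was the lowest of all, and the groups overlapped in both genotypes. Sildenafil differences were -0.23 ± 0.11 (SE) in Marfan lungs and -0.012 ± 0.11 in wild-type lungs. The difference between these effects was -0.21 ± 0.15 (limma with Benjamini-Hochberg adjusted p = 0.984).

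The 11 non-ATPase subunits of the cap ran from -0.26 log2 units (Psmd13) to 0.12 (Psmd14) in the averaged comparison. Psmd13, a subunit of the cap lid, read 9.08, 9.61, 9.46, 9.04 and 9.04 log2 units on the MFS-SIL arrays, against 9.59, 9.42, 9.70, 9.62 and 9.53 on the MFS-Veh arrays. The WT-SIL arrays had 9.26, 9.28, 9.49 and 9.36, against a lowest value of 9.44, a median of 9.51 and a highest of 9.77 on the WT-Veh arrays. Arrays 8, 11 and 12 formed a low set, and array 9 was as high as the vehicle arrays. The averaged difference of -0.26 ± 0.076 (SE) had an adjusted p = 0.187 (limma, Benjamini-Hochberg), and -0.31 with an adjusted p = 0.0370 without array 9. With array quality weights it was -0.29 with an adjusted p = 0.0463, and with the brightness covariate -0.13 with an adjusted p = 0.646.

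Of the 50 genes, 2 (Psmb1 and Psmd13) passed the adjusted threshold without array 9, a setting in which 74 of the 19505 genes passed. In that setting 15 of the 50 were lower at an unadjusted p under 0.05, and the share of all genes at that p is not given here. Psmd8, a lid subunit, had a within-group SD of 0.32, the largest of the cap subunits. Its MFS-SIL arrays read 8.39, 9.65, 8.79, 8.34 and 8.34, against 8.72, 8.89, 9.00, 8.67 and 8.81 in MFS-Veh, and array 9 was far above the rest. Its averaged difference was -0.19 ± 0.13 (SE) with array 9 and -0.31 ± 0.082 without it, and 0.013 on deposited values with array 9. Psmd4, a ubiquitin receptor of the cap, averaged 8.31 ± 0.19 in MFS-SIL and 8.51 ± 0.13 in MFS-Veh (SD, n = 5 each), against 8.39 ± 0.14 in WT-SIL (n = 4) and 8.59 ± 0.12 in WT-Veh (n = 6). Its averaged difference was -0.20 ± 0.072 (SE).

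**Figure D3:**
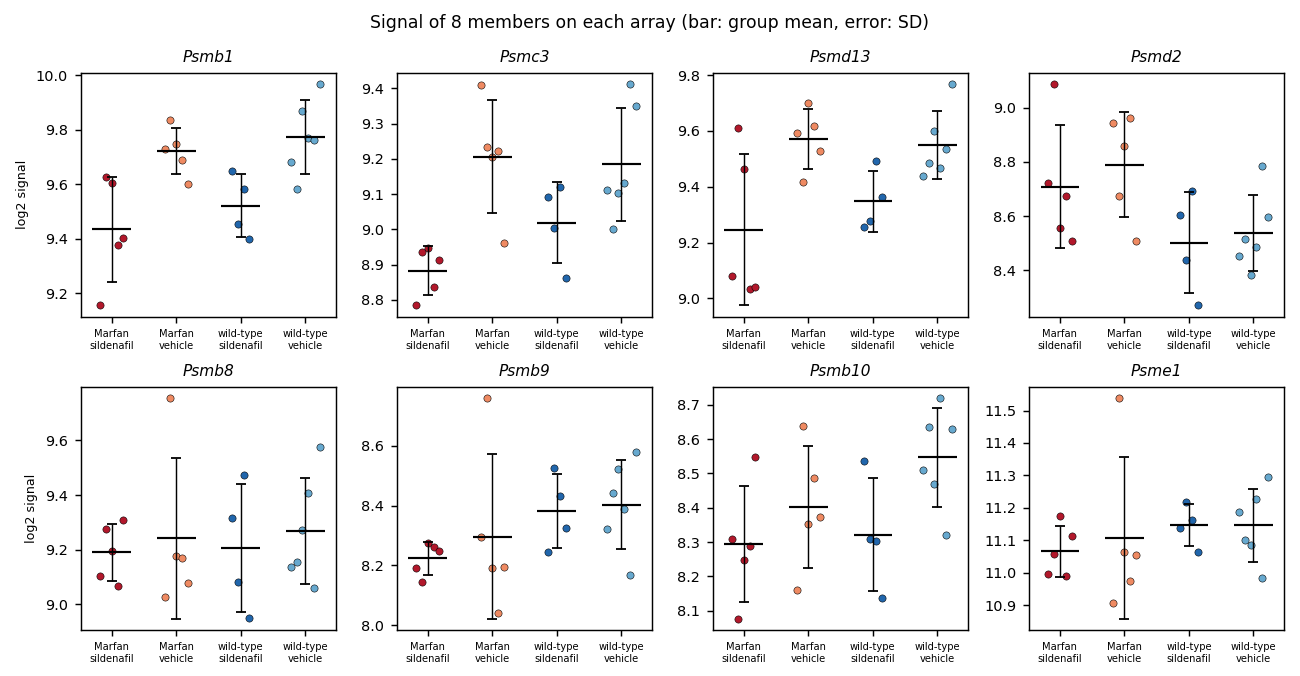
Quantile-normalized log2 signal (vertical axis) of 8 proteasome genes on each array, with the group mean and SD, in the order MFS-SIL, MFS-Veh, WT-SIL and WT-Veh. Psmc3 is lower on all 5 MFS-SIL arrays than on any MFS-Veh array, Psmd13 is low on 3 of 5 MFS-SIL arrays, and Psmb8 is highest on MFS-Veh array 21 at 9.76 log2 units.

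A few cap genes had positive differences with sildenafil on normalized values, none of them at an unadjusted p under 0.05 in any of the 3 sildenafil comparisons. Psmd14, the deubiquitinase of the lid, read 8.11, 8.39, 8.19, 8.17 and 7.78 log2 units on the MFS-SIL arrays, against 7.87, 8.17, 7.93, 7.92 and 7.74 on the MFS-Veh arrays. In wild-type lungs it read 8.20, 7.84, 8.07 and 7.96 with sildenafil, against a lowest value of 7.74, a median of 7.97 and a highest of 8.22 with vehicle. MFS-SIL array 12 was near the bottom of the range, while the 4 other MFS-SIL arrays were in the upper part. The averaged difference was 0.12 ± 0.084 (SE), and its interval of -0.050 to 0.30 (95%) includes 0.

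Psmd12, a scaffold of the lid, read 9.13, 9.10, 9.05, 9.21 and 9.19 log2 units on the MFS-SIL arrays, against 9.08, 9.14, 8.72, 8.97 and 8.97 on the MFS-Veh arrays. The WT-SIL arrays read 8.99, 8.98, 9.10 and 9.13, against a lowest value of 8.90, a median of 9.21 and a highest of 9.27 on the WT-Veh arrays. The sildenafil arrays were higher than most vehicle arrays in Marfan lungs and in the lower part of the range in wild-type lungs. The sildenafil difference was 0.16 ± 0.090 (SE) in Marfan lungs and -0.096 ± 0.092 in wild-type lungs. The interaction was 0.26 ± 0.13 (limma with Benjamini-Hochberg adjusted p = 0.984).

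Psmd5, a chaperone of cap assembly, read 7.83, 7.83, 7.92, 8.02 and 7.87 log2 units on the MFS-SIL arrays, against 7.60, 8.09, 7.87, 7.86 and 7.81 on the MFS-Veh arrays. It read 8.18, 8.06, 8.21 and 7.83 on the WT-SIL arrays, against a lowest value of 7.64, a median of 7.95 and a highest of 8.07 on the WT-Veh arrays. WT-SIL arrays 1 and 5 were above all others, and the groups overlapped. Its averaged sildenafil difference was 0.11 ± 0.075 (SE). Psmd9, a further assembly chaperone, read 7.41, 7.20, 7.48, 7.36 and 7.36 on the MFS-SIL arrays, against 7.39, 7.42, 7.80 and 7.49 on the WT-SIL arrays. Its Marfan against wild-type difference under sildenafil was -0.16 ± 0.11.

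The 3 immunoproteasome genes were below 0 in both genotypes (none on deposited values in the average, 2 of 3 below the median of all genes), with an averaged median of -0.058 log2 units. Psmb8 read 9.10, 9.28, 9.20, 9.07 and 9.31 log2 units on the MFS-SIL arrays, against 9.03, 9.76, 9.18, 9.17 and 9.08 on the MFS-Veh arrays. It read 9.32, 9.08, 9.47 and 8.95 on the WT-SIL arrays, against a lowest value of 9.06, a median of 9.21 and a highest of 9.58 on the WT-Veh arrays. MFS-Veh array 21 was the highest, and the groups overlapped. The averaged sildenafil difference was -0.058 ± 0.091 (SE), and 0.14 on deposited values.

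Psmb9 read 8.19, 8.14, 8.28, 8.26 and 8.25 log2 units on the MFS-SIL arrays, against 8.30, 8.76, 8.19, 8.04 and 8.19 on the MFS-Veh arrays. On the WT-SIL arrays it read 8.25, 8.53, 8.43 and 8.33, against a lowest value of 8.17, a median of 8.41 and a highest of 8.58 on the WT-Veh arrays. Apart from array 21, most Marfan arrays were in the lower part of the range. Averaged over treatment, Marfan minus wild-type was -0.13 ± 0.080 (SE, limma with Benjamini-Hochberg adjusted p = 0.922), and it was 0.019 on the deposited values.

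Psmb10 read 8.31, 8.08, 8.25, 8.29 and 8.55 log2 units on the MFS-SIL arrays, against 8.16, 8.64, 8.35, 8.49 and 8.37 on the MFS-Veh arrays. The WT-SIL values were 8.54, 8.31, 8.30 and 8.14, against a lowest value of 8.32, a median of 8.57 and a highest of 8.72 on the WT-Veh arrays. Sildenafil arrays lay lower in general, with array 12 of MFS-SIL and array 1 of WT-SIL as exceptions. The averaged difference was -0.17 ± 0.077 (SE, limma with Benjamini-Hochberg adjusted p = 0.432), -0.23 with array brightness as a covariate and 0.031 on deposited values.

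MFS-Veh array 21 carried the highest Psmb8 and Psmb9 of all arrays, and also the highest Psme1, at 11.54 log2 units against at most 11.30 elsewhere. On this array the markers of T and NK cells lay 0.64 log2 units above the mean of all arrays. Those of dendritic cells and monocytes lay 0.59 and those of alveolar macrophages 0.57 above it. Its B cell markers lay 0.17 and its neutrophil markers 0.023 above that mean. MFS-SIL array 9 had higher alveolar macrophage markers, at 1.45 above the mean, and T and NK cell markers at -0.47. There Psmb8 read 9.28, Psmb9 8.14 and Psmb10 8.08, the last being the lowest Psmb10 of all arrays. All 7 listed T and NK cell markers were measured, and their summed linear signal ran from 1111 to 1585 in MFS-SIL, 1173 to 2480.2 in MFS-Veh, 1529 to 1661 in WT-SIL and 1078 to 1729.5 in WT-Veh. The part of these cell types in the values of arrays 21 and 9 was not tested.

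Psmb9 and Tap1 share the stretch of DNA printed above, and their values under sildenafil are set side by side. Tap1 read 8.92, 8.85, 9.07 and 8.97 log2 units on the WT-SIL arrays. The WT-Veh arrays read 8.71, 8.75, 8.71, 8.71 and 8.75, and 8.09 on array 18. Its difference in wild-type lungs was 0.33 ± 0.13 (SE), against -0.021 ± 0.11 for Psmb9, both on normalized values. On deposited values, where the median of all genes shifted by 0.279, Psmb9 was at 0.32, which is not on the scale of the Tap1 value. Neither gene passed the adjusted threshold (limma with Benjamini-Hochberg adjusted p = 0.456 for Tap1). In Marfan lungs Tap1 averaged 8.89 ± 0.15 with sildenafil and 8.90 ± 0.23 with vehicle (SD, n = 5 each). Psmb9 averaged 8.22 ± 0.055 and 8.30 ± 0.27 there, so the contrast of the wild-type lungs was not seen in Marfan lungs. The contrast between these genes was not tested, and Tap1 was singled out after its values were seen.

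The activators and the inhibitor of the core had a median averaged sildenafil difference of 0.011 log2 units, with 3 of 6 genes below 0 and none at an unadjusted p under 0.05. Psme1 and Psme2 encode the interferon-inducible activator, and their averaged differences were -0.021 ± 0.069 and -0.059 ± 0.0615 (SE). Psme2b, a copy of Psme2 whose probes may share its transcripts, read 8.80, 8.81, 9.00, 8.98 and 8.77 log2 units on the MFS-SIL arrays, against 8.86, 8.63, 8.17, 8.98 and 8.83 on the MFS-Veh arrays. The groups overlapped, and MFS-Veh array 22 was the lowest. Its difference in Marfan lungs was 0.18 ± 0.13.

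Psme3, the nuclear activator, read 9.14, 9.41, 8.96 and 8.97 log2 units on the WT-SIL arrays, against a lowest value of 8.99, a median of 9.01 and a highest of 9.09 on the WT-Veh arrays. WT-SIL array 4 was the highest, and the wild-type difference was 0.099 ± 0.12 (SE), or -0.039 with array brightness as a covariate. Psmf1, which encodes an inhibitor of the core, read 9.44, 9.16, 9.28 and 9.19 on the WT-SIL arrays, against a lowest value of 9.02, a median of 9.21 and a highest of 9.34 on the WT-Veh arrays. Its difference was 0.079 ± 0.10, and -0.0025 with each array centred on its median. Psme4, a single-chain activator, read 7.80, 7.98, 7.79, 7.96 and 7.70 on the MFS-SIL arrays, against 7.34, 7.71, 7.76 and 7.76 on the WT-SIL arrays. All but array 12 of the MFS-SIL arrays were above all WT-SIL arrays, and the difference was 0.21 ± 0.13 (limma with Benjamini-Hochberg adjusted p = 1.00).

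All 4 core assembly chaperones were below 0 in both genotypes (1 of 4 on deposited values in the average, all 4 below the median of all genes), with an averaged median of -0.17 log2 units. Psmg4 read 5.53, 5.67, 5.65, 4.98 and 4.99 log2 units on the MFS-SIL arrays, against 5.41, 5.61, 5.65, 5.17 and 5.37 on the MFS-Veh arrays. Its WT-SIL values were 5.51, 5.00, 5.62 and 4.75, against a lowest value of 5.38, a median of 5.71 and a highest of 5.90 on the WT-Veh arrays. In both sildenafil groups a pair of arrays (11 and 12, and 4 and 6) was below all vehicle arrays and the others were not. The difference was -0.47 ± 0.19 (SE) in wild-type lungs and -0.075 ± 0.18 in Marfan lungs, and this dimmer gene had a within-group SD of 0.29.

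**Figure D4:**
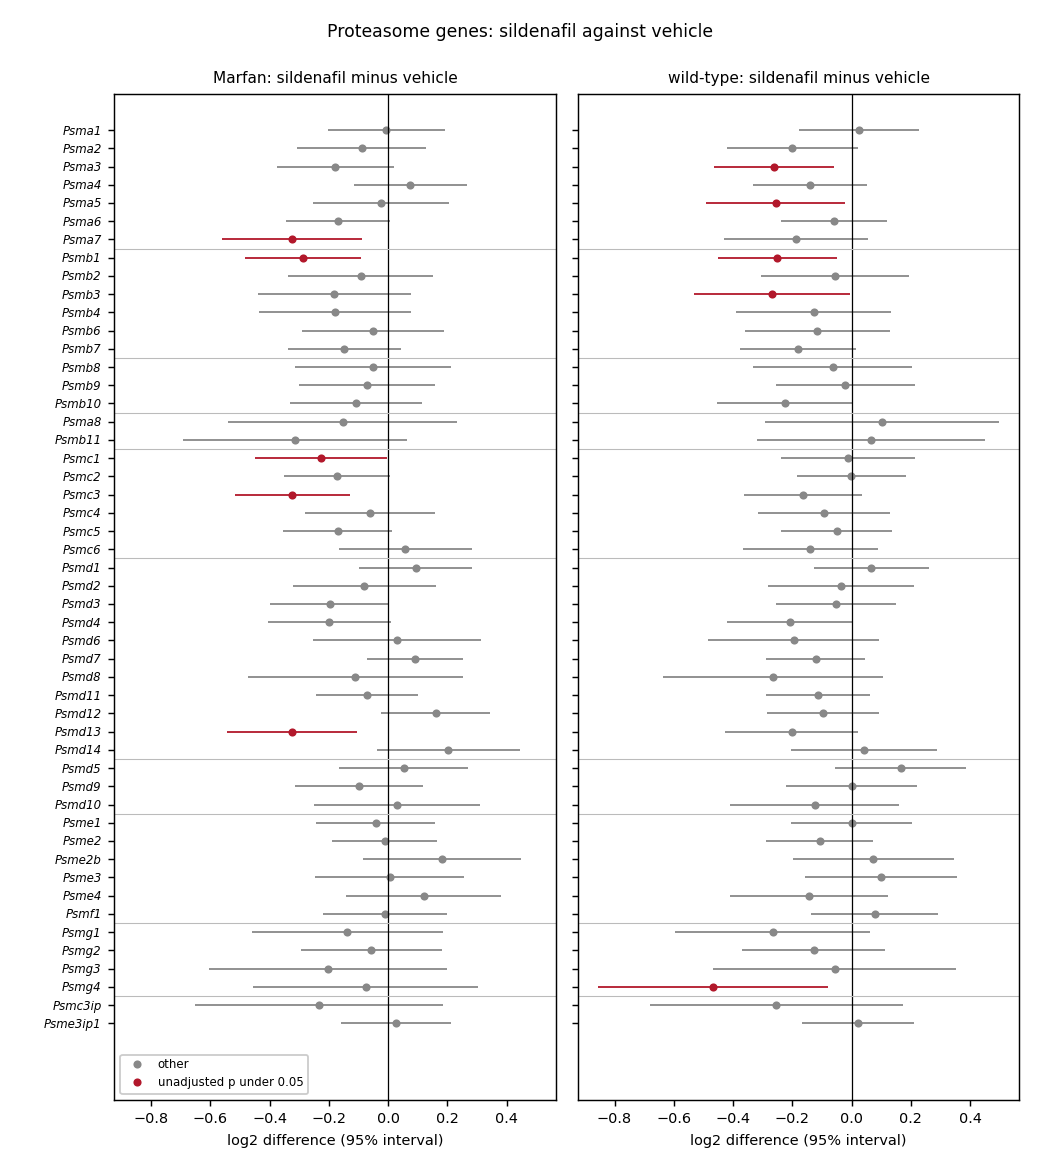
Fitted log2 differences of each proteasome gene for sildenafil against vehicle in Marfan lungs (left) and wild-type lungs (right), with 95% intervals along the horizontal axis, genes grouped by role and red marking an unadjusted p under 0.05. On these normalized values 37 of 50 genes are below 0 in Marfan and 39 in wild-type lungs, against 26 and 1 on deposited values, and no gene passed the adjusted threshold.

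Each genotype's own comparison is part of the averaged one. In Marfan lungs 37 of the 50 genes were below 0 with a median of -0.078 log2 units, against 51.6% of all genes. None passed the adjusted threshold, and 5 were lower at an unadjusted p under 0.05 (10%, against 3.41% of all genes), namely Psmc3, Psmd13, Psmb1, Psma7 and Psmc1. None was higher at that p, against 3.29% of all genes. On deposited values none was lower or higher at that p, and without array 9, 13 were lower. The erythrocyte marker Alas2 averaged 8.76 ± 0.74 log2 units in MFS-SIL and 9.86 ± 0.36 in MFS-Veh (SD, n = 5 each), and its part in these differences was not tested. In wild-type lungs it averaged 9.90 ± 0.43 in WT-SIL (n = 4) and 9.81 ± 0.54 in WT-Veh (n = 6). In wild-type lungs 39 were below 0 with a median of -0.11, against 50.4% of all genes. There, 5 were lower at that p (10%, against 4.45% of all genes), namely Psma3, Psmb1, Psmg4, Psma5 and Psmb3, and none was higher, against 4.65% of all genes. On deposited values none was lower and 8 were higher at that p, and without WT-SIL array 6 none was lower and 1 was higher. On deposited values, where the median of all genes shifted by 0.279 in wild-type lungs and by 0.045 in Marfan lungs, 1 of the 50 was below 0 in wild-type lungs and 26 in Marfan lungs. With the brightness covariate, the wild-type median relative to all genes shrank to -0.014.

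On normalized values the difference between the sildenafil effects of the genotypes was centred near 0. Its median over the 50 genes was 0.015 log2 units with 22 genes below 0, against 50.4% of all genes. On deposited values, where the median of all genes shifted by -0.237, 47 were below 0. On normalized values none of the 50 had an unadjusted p under 0.05, against 4.47% of all genes. The smallest p in the positive direction belonged to Psmd12, given above, then Psmd7 and Psma4, whose normalized sildenafil differences were negative in wild-type lungs and positive in Marfan lungs (the interaction of Psmd7 was -0.017 on deposited values). On the negative side were Psmb11, Psmc1 and Psmc2. With the brightness covariate, Psmd13 (-0.35), Psmc3 (-0.31), Psmc1 (-0.35) and Psmd12 (0.31) had an unadjusted p under 0.05 for the interaction. None of them passed the adjusted threshold there. Psmb11, a subunit of the thymus-specific proteasome, read 3.17, 3.66, 2.81, 2.97 and 2.93 log2 units on the MFS-SIL arrays, against 3.19, 3.42, 3.59, 3.78 and 3.13 on the MFS-Veh arrays. These values were near those of the background probe sets, from -0.039 to 1.06 log2 units above them on the deposited scale, so that its interaction of -0.38 ± 0.26 (SE) rests on a signal at background. Psma8, the alpha subunit of the testis, was also dim, at 0.33 to 1.47 above the background.

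In Marfan against wild-type lungs under vehicle, 36 of 50 genes were below 0 with a median of -0.048 log2 units, against 51.2% of all genes with a median of -0.0048. On deposited values, with all genes shifted by 0.247, none of the 50 was below 0. No gene passed the adjusted threshold (0% of all genes), and 3 of the 50 had an unadjusted p under 0.05 (6%), a share close to the 6.26% of all genes. Of these 3, 1 was lower and 2 were higher, while on deposited values none was lower and 5 were higher. With the brightness covariate, 24 of the 50 were below 0 and the median was 0.012.

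Psmd7, a lid subunit, was the gene lower in MFS-Veh with no overlap, as were 0.267% of all genes. It read 9.24, 9.15, 9.17, 9.02 and 9.23 log2 units on the MFS-Veh arrays, against a lowest value of 9.26, a median of 9.32 and a highest of 9.50 on the WT-Veh arrays. With sildenafil it read 9.26, 9.28, 9.23, 9.12 and 9.38 in Marfan lungs, against 9.18, 9.17, 9.16 and 9.35 in wild-type lungs. Those sildenafil groups overlapped. The difference under vehicle was -0.18 ± 0.076 (SE, limma with Benjamini-Hochberg adjusted p = 0.789), and 0.076 on the deposited values.

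Psma4, an alpha subunit, read 9.40, 9.69, 9.48, 9.42 and 9.62 log2 units on the MFS-Veh arrays, against a lowest value of 9.40, a median of 9.74 and a highest of 9.86 on the WT-Veh arrays. Most Marfan arrays were below most wild-type arrays, with a difference of -0.17 ± 0.088 (SE). On deposited values this difference was 0.057, and that of Psmd12, -0.17 ± 0.086 on normalized values, was 0.088.

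Psmd2, a large scaffold of the cap base that docks shuttle proteins with ubiquitin-like domains, had the smallest unadjusted p among the genes higher in Marfan lungs averaged over treatment. It read 8.94, 8.68, 8.86, 8.96 and 8.51 log2 units on the MFS-Veh arrays, against a lowest value of 8.38, a median of 8.50 and a highest of 8.78 on the WT-Veh arrays. Under sildenafil the MFS-SIL arrays read 8.72, 9.09, 8.56, 8.67 and 8.51, against 8.60, 8.44, 8.69 and 8.27 on the WT-SIL arrays. Marfan arrays were higher on the whole under both treatments, with overlap in each. The difference was 0.25 ± 0.11 (SE) under vehicle, 0.21 ± 0.12 under sildenafil and 0.23 ± 0.084 averaged over treatment (unadjusted p = 0.0109, limma with Benjamini-Hochberg adjusted p = 0.918). It was the single gene of the 50 with an unadjusted p under 0.05 in that average (2%), against 5.35% of all genes.

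Psmc2, an ATPase of the cap, read 9.34, 9.27, 9.11, 9.08 and 9.03 log2 units on the MFS-Veh arrays, against a lowest value of 8.89, a median of 8.97 and a highest of 9.11 on the WT-Veh arrays. Arrays 20 and 21 were the highest, and the difference was 0.19 ± 0.084 (SE). With sildenafil it averaged 9.00 ± 0.12 in MFS-SIL (SD, n = 5) and 8.98 ± 0.12 in WT-SIL (n = 4), with a difference of 0.014 ± 0.093 (SE). Psmd3, a lid subunit, read 9.06, 8.91, 9.02, 9.14 and 8.90 on the MFS-Veh arrays, against a lowest value of 8.71, a median of 8.78 and a highest of 9.10 on the WT-Veh arrays. Array 17 alone of the wild-type arrays reached the Marfan values, and the difference was 0.18 ± 0.093.

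In Marfan against wild-type lungs under sildenafil, 27 of 50 genes were below 0 (25 on deposited values) with a median of -0.019 log2 units, against 51.2% of all genes, and none had an unadjusted p under 0.05, against 3.89% of all genes. Psmd11, a lid scaffold, read 8.49, 8.62, 8.49, 8.38 and 8.60 log2 units on the MFS-SIL arrays, against 8.49, 8.46, 8.37 and 8.34 on the WT-SIL arrays, and the groups overlapped at a difference of 0.099 ± 0.088 (SE). Averaged over treatment, 34 of 50 genes were below 0 with a median of -0.052 (51.8% of all genes). On deposited values, shifted by 0.125 over all genes, 2 of 50 were below 0. On normalized values the core alpha genes were below 0 in 7 of 7 and the immunoproteasome genes in 3 of 3, and on deposited values none was, though 6 of 7 and 3 of 3 lay below the median of all genes. With the brightness covariate Psma3 (0.029), Psma5 (0.071) and Psmb8 (0.041) were above 0 and the rest of these genes below it. Psmc3ip, the recombination partner that is no subunit, read 5.08, 5.70, 5.38, 5.66 and 5.18 on the MFS-SIL arrays, against 5.64, 5.33, 5.67 and 6.02 on the WT-SIL arrays. Its averaged genotype difference was -0.27 ± 0.15.

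**Figure D5:**
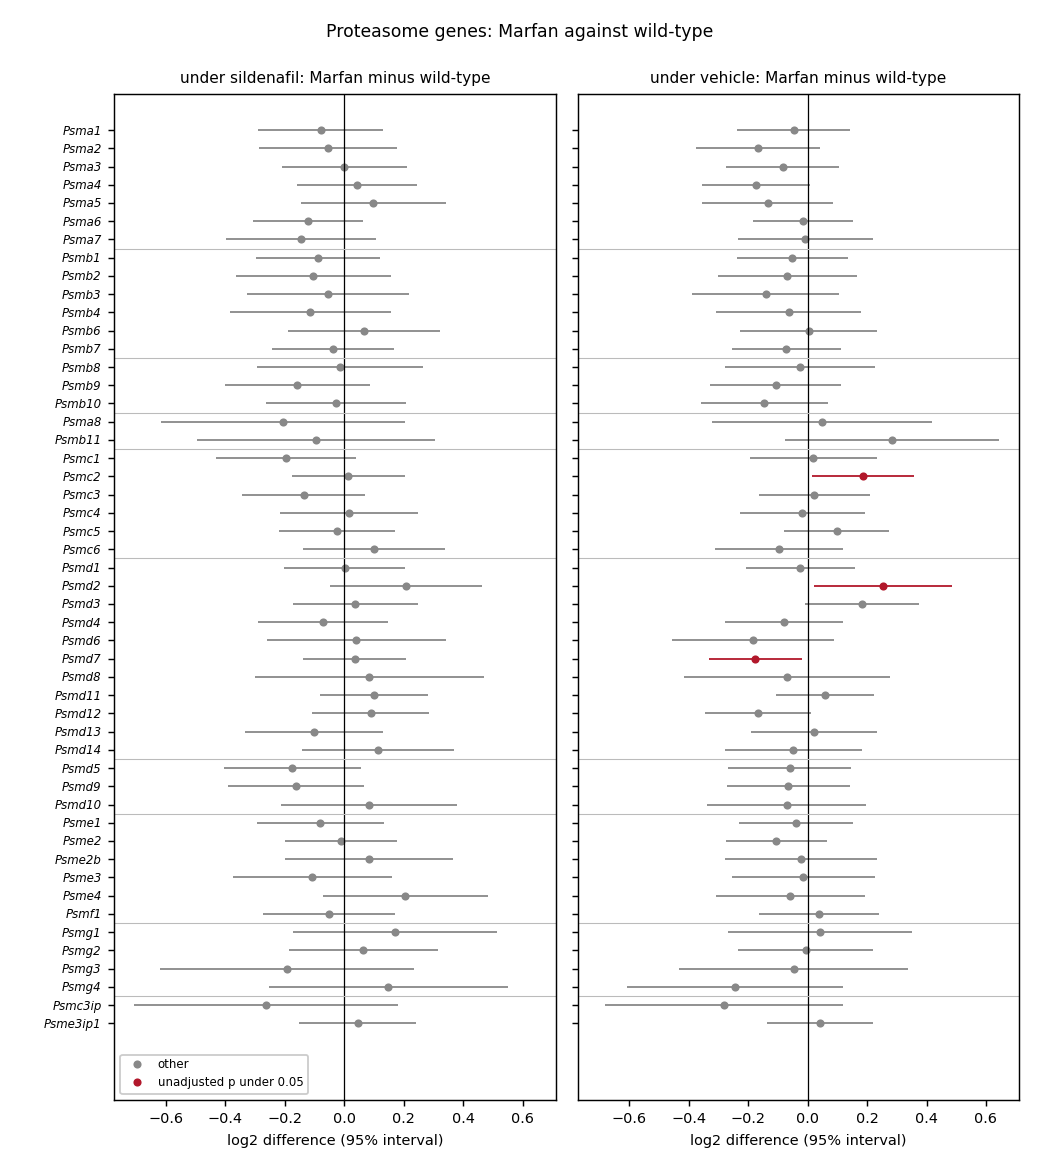
Fitted log2 differences of each proteasome gene for Marfan against wild-type lungs under sildenafil (left) and vehicle (right), with 95% intervals along the horizontal axis, genes grouped by role and red marking an unadjusted p under 0.05. On these normalized values Psmd2 is above 0 under both treatments and 36 of 50 genes are below 0 under vehicle, against none on deposited values.

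Other proteins of the pathway were set beside the subunits. Of 14 listed proteins that bind or build the proteasome, 12 were measured, and 9 of these were below 0 in the averaged sildenafil comparison (3 on deposited values), with a median of -0.11 log2 units, 4 lower and 1 higher at an unadjusted p under 0.05. Sem1, a small lid subunit outside the symbol pattern, averaged 9.66 ± 0.11 in MFS-SIL and 9.82 ± 0.18 in MFS-Veh (SD, n = 5 each), against 9.63 ± 0.13 in WT-SIL (n = 4) and 10.03 ± 0.20 in WT-Veh (n = 6). Its difference was -0.28 ± 0.074 (SE). Pomp, which matures the beta ring, was at -0.20 ± 0.065 and Txnl1, a redox protein of the cap, at -0.24 ± 0.078, while Zfand5, an activator of the cap, was at 0.15 ± 0.062. None passed the adjusted threshold.

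Of the listed genes that drive proteasome transcription or supply ubiquitin, 11 of 18 were measured. All 11 were above 0 in the averaged sildenafil comparison (also on deposited values, and 9 of 11 with the brightness covariate), with a median of 0.076 log2 units and 2 of them at an unadjusted p under 0.05. Uba6, a ubiquitin-activating enzyme, was at 0.23 ± 0.090 (SE) and Nfe2l1, the proteasome transcription factor, at 0.19 ± 0.098. In Marfan lungs alone Vcp, Ufd1, Rad23b, Ubqln2 and Ubqln4 averaged lower with sildenafil than with vehicle, and the rest of these 11 averaged higher. In wild-type lungs all 11 averaged higher than in WT-Veh, the dimmest group before normalization. Of the interferon-gamma and antigen-presentation genes, 16 of 18 were measured. In the averaged sildenafil comparison 11 were above 0 (all 16 on deposited values), with a median of 0.081 and 5 higher at an unadjusted p under 0.05. Tapbp, which tethers class I molecules to the peptide transporter, was at 0.42 ± 0.098 (limma with Benjamini-Hochberg adjusted p = 0.113), and Cd274, an interferon-inducible checkpoint ligand, at 0.57 ± 0.17. The highest Cd274 signal, 9.93 log2 units, was on MFS-SIL array 9. Below 0 in the averaged comparison were Irf1, Irf8, H2-D1, Ifng and Ifngr2. The immunoproteasome genes, which interferon also induces, were below 0 in the same comparison on normalized values, but none of the 3 was on deposited values, and Psmb8 was at 0.011 with the brightness covariate.

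Differences below 0 were not limited to the proteasome. In the averaged sildenafil comparison, cytosolic ribosomal protein genes were below 0 in 65 of 65 (53 on deposited values), with a median of -0.21 log2 units and 48 at an unadjusted p under 0.05. Mitochondrial ribosomal protein genes were below 0 in 72 of 76 (18 on deposited values), with a median of -0.15 and 25 past that p, and respiratory chain genes in 85 of 93 (45 on deposited values), with a median of -0.16 and 44 past it. None of these genes passed the adjusted threshold. On MFS-SIL arrays the median deviation of the cytosolic ribosomal genes ran from -0.33 to 0.017 and on MFS-Veh arrays from -0.066 to 0.21. It ran from -0.22 to 0.018 on WT-SIL arrays and from -0.037 to 0.43 on WT-Veh arrays. The median over the 9753 brighter genes was -0.0042. The 3 leukocyte markers measured, Ptprc, Coro1a and Laptm5, had a median difference of 0.15 and a summed linear signal of 4699.6 to 6264 in MFS-SIL, 4301 to 5072 in MFS-Veh, 4748 to 5159 in WT-SIL and 3939.6 to 4986 in WT-Veh. The 3 markers did not move together. Ptprc averaged 10.431 log2 units in MFS-SIL, 10.62 in MFS-Veh, 10.615 in WT-SIL and 10.571 in WT-Veh. In the same order Coro1a averaged 8.71, 8.70, 8.93 and 8.64, and Laptm5 averaged 11.651, 11.338, 11.526 and 11.211. The part of leukocytes in the values of this paragraph was not tested.

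Promoter motifs and signals were set side by side as a description. On normalized values the 5 genes with an interferon-stimulated match had a median averaged sildenafil difference of -0.20 log2 units, against -0.083 for the 37 genes with a promoter and no match. The 5 with an antioxidant response match had -0.041, against -0.092 for the 37 without one. The 16 with a CCAAT box had -0.12, against -0.068 for the 26 without one.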

How the data were processed

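Whole-lung RNA (700 pg per sample, RNA integrity number above 8.5, per the labels' protocols) was hybridised to Affymetrix arrays. The authors deposited log2 signals made with Expression Console and RMA, per the submitters' processing notes, with versions not given in the sources used here. Of 24 columns, 20 held values; the 4 others were titled as failing quality control and were empty. Of 29129 entries, 6923 were controls. The 22206 transcript probe sets were quantile-normalized over the 20 arrays and 1 probe set, that with the highest mean, was kept for each of 19505 symbols. Limma 3.58.1 in R 4.3.3 (lmFit, eBayes with a variance trend) fitted 4 group means with 16 residual degrees of freedom, and p-values were two-sided and adjusted over all genes by Benjamini-Hochberg (threshold 0.05) in each of 7 comparisons. The code was tested on simulated data. Array values are given for Psmb6 to Psmb10 and, per comparison, for the 3 members per direction with the smallest unadjusted p, 27 genes in all; further genes were added for their unadjusted p or spread after their values were seen. The members and gene lists were chosen with earlier results of these data known. The number of arrays limits the precision. Alternatives covered normalization, filters, covariates, weights and each array left out. RefSeq promoters were from GRCm38.p6; no protein sequences were compared. No label pairs the samples.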

Additional observations from a re-analysis of the deposited data

Results flagged for a closer look

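In groups of 4 to 6 arrays, the highest and the lowest array were checked for a gap to the nearest other array beyond Dixon's 95% limit. This marked 6 of 108 gene and group pairs, and chance alone marks about 1 in 20. Psmb8 read 9.76 log2 units on MFS-Veh array 21, against 9.18 on the next array. Psmd7 read 9.35 on WT-SIL array 6, against 9.18, and Psmd3 read 9.10 on WT-Veh array 17, against 8.83. Psme4 read 7.34 on WT-SIL array 1, against 7.71 on the nearest, and Psmf1 read 9.07 on MFS-SIL array 11, against 9.22. Psmb11 read 3.66 on WT-SIL array 6, against 3.09, at signals near the background.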

How the results depend on the processing

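No paired analysis was possible because the groups share no replicate numbers. Over the 7 comparisons, the counts past the adjusted threshold and the members' medians relative to all genes were recomputed under each alternative. Of these values, 397 stayed within 1.5 times the main count or within 0.081 log2 units of the main median (the SD of the array medians of the members within groups), and 3 did not. The 3 were the wild-type sildenafil median, at -0.014 with the brightness covariate against -0.11, and the averaged sildenafil count, which was 1 with array weights and 0 to 2 with an array left out (2 without MFS-SIL array 9). That tolerance was larger than several of the main medians, so a median could change sign and still be counted as staying. Every main count was 0, as no gene passed the adjusted threshold. The number that stayed is therefore no measure of how firm the directions are. Inside that tolerance the brightness covariate also moved medians relative to all genes. The averaged sildenafil median was -0.031 against -0.082, that of Marfan against wild-type 0.018 against -0.043 under vehicle and 0.0067 against -0.047 averaged over treatment, and that of the interaction -0.040 against 0.018. Among all 50 genes, deposited values turned the sign of 32 in the averaged sildenafil comparison, 38 in wild-type lungs, 11 in Marfan lungs and 36 for Marfan against wild-type under vehicle, and the brightness covariate turned 10, 18, 1 and 16 of them. Among the gene and comparison pairs picked for their p, 10 turned their sign, none of them past the adjusted threshold. On deposited values these were Psmd7 0.076, Psma4 0.057 and Psmd12 0.088 for Marfan against wild-type under vehicle, and Psma3 0.049 and Psmb1 0.035 for sildenafil in wild-type lungs. They were also Psmd7 -0.017 for the interaction, and Psmb9 0.019 and Psmd5 0.044 for Marfan averaged over treatment. In wild-type lungs under sildenafil, Psme3 was -0.039 with the brightness covariate and Psmf1 -0.0025 with median centring. The cause was not tested. The number of genes lower at an unadjusted p in the averaged comparison, an alternative added after the values were seen, ran from 0 (deposited values, with 4 higher) to 15 (array weights, or without MFS-SIL array 9), and it was 7 without WT-SIL array 6. Psmb11 and Psma8 lay near the background, which limits their values. No protein comparison was run.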
